A study of Arabidopsis thaliana with 42 samples.

Results

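The 10 genes described here carry sulfate into Arabidopsis thaliana cells and reduce it, or mark a shortage of sulfur. They were taken by locus from the 37336 loci of every count file. They are SULTR1;1 (AT4G08620), SULTR1;2 (AT1G78000), APS1 (AT3G22890), APR1 (AT4G04610), APR2 (AT1G62180), APR3 (AT4G21990), SIR (AT5G04590), SDI1 (AT5G48850), LSU1 (AT3G49580) and LSU2 (AT5G24660). The study asked how plants sense nitrate through NLP7 and its relatives, the NIN-like protein (NLP) transcription factors, and sequenced messenger RNA in 42 libraries. Seedlings made up 6 groups of 3 libraries: the septuple mutant nlp2,4,5,6,7,8,9 in N and in K, chl1-5 in N and in K, and wild type in N and in K. The mutant chl1-5 lacks a working NRT1.1, a nitrate transporter and sensor. N stands for 20 min in 10 mM KNO3 and K for 20 min in 10 mM KCl, as read from the treatment text. All seedlings were 7 days old, were harvested whole and had grown on 2.5 mM ammonium succinate as nitrogen source with 1 mM MgSO4. Mesophyll protoplasts, which are leaf cells without their walls, came from wild type (Col-0) grown in soil for 3 to 4 weeks. They made up 12 groups of 2 libraries, each of NLP1 to NLP9 expressed transiently, and 3 controls (for NLP1,2,3,5,8,9, for NLP4,6 and for NLP7).

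Plants take up sulfate through proton-coupled transporters. ATP sulfurylase activates it to adenosine phosphosulfate (APS), APS reductase turns this into sulfite, and sulfite reductase makes the sulfide that is joined to O-acetylserine to form cysteine, the source of glutathione. When sulfur is short, roots raise transporter and APS reductase transcripts together with a set of small marker genes, in large part through the transcription factor SLIM1. The reduced sulfur must meet a supply of amino-acid skeletons, and the pathway is known to respond to nitrogen supply.

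Seedling libraries held 18.3 to 59.7 M (megacounts) in genes and protoplast libraries 5.6 to 27.7 M, so that 3 counts, the limit that a count of 0 allows, came to 0.0502 to 0.164 CPM (counts per megacount of the library) in seedlings and 0.108 to 0.532 CPM in protoplasts. These limits cover counting error only. NLP8 had 0 counts in all 6 septuple libraries, against 74 to 578 counts in the wild-type libraries, and NRT1.1 lay between 49.7 and 90.9 CPM in chl1-5, against 489 to 917 CPM in wild type. In 14 of the 18 protoplast libraries with an NLP, the NLP named by the label was the highest. The library labelled NLP4 replicate 1 held NLP1 instead, that labelled NLP6 replicate 1 held NLP4, that labelled NLP5 replicate 2 held NLP8 and that labelled NLP8 replicate 2 held NLP5. Libraries were kept as labelled, and results are also given without those 4. The 2 libraries of the control for NLP1,2,3,5,8,9 did not differ beyond the sampling noise outside the NLP genes (chi-square of 1.01 per gene, p = 0.119) and were counted as 1 sample, which 6 of the 9 NLP comparisons share. Summed over 6 mesophyll markers, the protoplast libraries held 752 to 2690 CPM and the seedling libraries 20900 to 71400 CPM. Root markers summed to 0 to 0.522 CPM in protoplasts and to 78.7 to 308 CPM in seedlings, and epidermis markers to 0.194 to 2.93 and 431 to 844 CPM. In bulk samples of either kind, fewer cells of a type and less RNA per cell cannot be told apart.

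Levels per length were compared first, as CPM per kb of exon. In wild-type seedlings in K, APS1, the plastid ATP sulfurylase, was highest at 502 ± 136 CPM per kb (SD, n = 3). SIR, the sulfite reductase, followed at 132 ± 16.9 CPM per kb. Of the APS reductases, which catalyse the most tightly controlled step of the pathway, APR1 stood at 67.7 ± 10.6 and APR3 at 66.0 ± 2.84 CPM per kb, a difference within their spread, and APR2 at 11.9 ± 3.95 CPM per kb. LSU2 and LSU1, small proteins named for their response to low sulfur, had 14.5 ± 7.53 and 10.4 ± 7.66 CPM per kb, and these did not differ from APR2 beyond their spread. Of the high-affinity transporters of the root, SULTR1;2 had 7.73 ± 1.65 and SULTR1;1 had 0.649 ± 0.121 CPM per kb. SDI1, a sulfur-deficiency protein that lowers glucosinolate synthesis, had 1.48 ± 1.64 CPM per kb, which overlapped with the lower transporter.

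In control protoplasts the order differed. APR3 was the highest APS reductase in every control, at 799 ± 49.6 CPM per kb (SD, n = 2) in the control for NLP4,6 and 663 ± 32.6 in the control for NLP7, against 160 ± 3.43 and 210 ± 12.7 CPM per kb of APR1. SULTR1;1 had 1 count in a single library of the 24, in the control for NLP4,6, and none in the others. It did not pass the filter on low counts, so that 9 of the 10 genes were tested in protoplasts and all 10 in seedlings. The controls also differed from one another. SDI1 had 108 and 90.5 CPM in the control for NLP7, 30 and 35.2 CPM in the control for NLP4,6, and 4.49 CPM in the control for NLP1,2,3,5,8,9. LSU1 had 308 and 230, 173 and 164, and 22.6 CPM in the same controls. LSU2 kept no such order, with 93.8 and 77.4, 147 and 134, and 19.5 CPM. These values are a description, since the control sets were separate and their differences cannot be told apart from a batch. Each NLP was therefore compared with its own control alone.

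**Figure D1:**
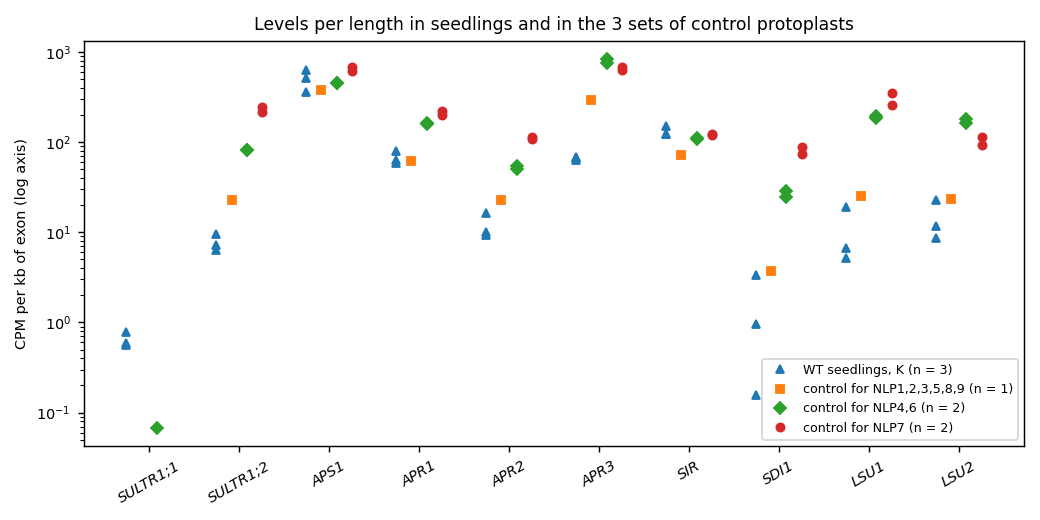
Level of each gene as CPM per kb of exon on a log axis, 1 point per library, in wild-type seedlings in K and in the 3 sets of control protoplasts; libraries at 0 are not drawn. SDI1, LSU1 and SULTR1;2 are spread widely between the control sets, while APS1 and SIR lie closer together.

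None of the 10 genes was called for nitrate after 20 min in wild type, where 0.725% of the 21229 genes tested were called in either direction (edgeR quasi-likelihood test, adjusted p under 0.05). APS1 had 777, 1147 and 985 CPM in N, against 980, 1204 and 687 CPM in K, and these ranges overlapped. APR1 had 86.5, 120 and 109 CPM in N, against 154, 124 and 115 CPM in K, a log2 fold change of -0.32 ± 0.21 (SE, adjusted p = 0.62). SIR had 587, 663 and 515 CPM in N, against 410, 505 and 405 CPM in K. These groups did not overlap, and the log2 fold change of 0.42 ± 0.18 was not called (adjusted p = 0.351). The SEs of the 10 log2 fold changes were 0.18 to 0.75, and a missing call does not show that a gene did not respond. The median log2 fold change over the 10 was 0.14, beside -0.07 over all genes tested. Nor was any called in the septuple mutant, where no gene at all was called (0%), nor in chl1-5, where 0.122% of genes were. None was called for a difference between the nitrate responses of the septuple mutant and wild type (0.278% of genes called) or of chl1-5 and wild type (0.00942%). At an unadjusted p under 0.05, SIR alone of the 10 passed in wild type and none did in the other 4 tests. The share of all genes passing at that threshold was not counted. DESeq2 called none of the 10 in any of these 5 tests, but gave no adjusted p for SULTR1;1 and SDI1 in wild type. It also gave none for SULTR1;1, SDI1, LSU1 and LSU2 in the test of the septuple mutant's response against that of wild type.

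The septuple mutant differed from wild type in the same genes' levels. SULTR1;1 and APR3 were higher in the mutant in both media, and APR1 in N. Among the 10, 2 were called higher in K and 3 in N and none lower, beside 2.25% of all genes called in either direction in K (1.41% higher) and 10.8% in N (4.05% higher). The median log2 fold change of the 10 was 0.61 in K and 0.62 in N, against -0.04 and 0.04 over all genes tested. The genes called were a root transporter and APS reductases. APS1 and SIR, the steps before and after the reductases, were not called. APS1 averaged 966 CPM in the mutant and 957 CPM in wild type in K, and 866 and 970 CPM in N. SIR had 421, 481 and 380 CPM in the mutant in N, against 587, 663 and 515 CPM in wild type, with no overlap, and was not called (-0.46 ± 0.18 on the log2 scale, adjusted p = 0.105), while DESeq2 called it lower (adjusted p = 0.0229). Its groups overlapped in K. The promoters of the 3 called genes are shown first, since these are the genes called in the mutant. They are the 250 bases before the annotated gene start in TAIR10.1, read 5′ to 3′ on the strand of the gene, at chr4:5500063-5500312 (plus strand), chr4:2324628-2324877 (plus strand) and chr4:11659168-11659417 (minus strand), and none overlaps an exon of another gene.
SULTR1;1: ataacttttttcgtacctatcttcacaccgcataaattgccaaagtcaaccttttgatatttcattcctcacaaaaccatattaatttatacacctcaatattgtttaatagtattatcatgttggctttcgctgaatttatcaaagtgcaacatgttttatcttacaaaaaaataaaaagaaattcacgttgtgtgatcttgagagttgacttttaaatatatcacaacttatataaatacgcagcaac
APR1: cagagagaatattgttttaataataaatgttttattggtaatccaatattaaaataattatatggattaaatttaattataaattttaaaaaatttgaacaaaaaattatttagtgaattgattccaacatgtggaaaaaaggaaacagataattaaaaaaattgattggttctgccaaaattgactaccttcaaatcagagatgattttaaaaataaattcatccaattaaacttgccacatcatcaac
APR3: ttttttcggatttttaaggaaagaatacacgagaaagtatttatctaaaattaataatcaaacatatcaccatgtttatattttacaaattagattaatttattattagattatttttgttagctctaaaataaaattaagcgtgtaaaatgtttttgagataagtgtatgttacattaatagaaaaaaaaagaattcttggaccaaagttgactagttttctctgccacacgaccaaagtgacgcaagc
Neither the core of the sulfur-responsive element, GAGAC, nor the nitrate-responsive element occurred in these 3 windows on either strand. Over 27443 promoters of the same length, 25.8% held GAGAC and 1.05% held the nitrate-responsive element.

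SULTR1;1, the high-affinity uptake transporter that roots induce most when sulfate is short, had 5.00, 5.12 and 8.01 CPM in septuple seedlings in K, against 1.86, 1.34 and 1.40 CPM in wild type. In N it had 5.81, 7.44 and 6.66 CPM in the mutant, against 1.74, 0.532 and 2.05 CPM in wild type. All 6 mutant libraries lay above all 6 wild-type libraries, the lowest of which held 16 counts. The log2 fold changes were 1.97 ± 0.53 in K (adjusted p = 0.0458) and 2.20 ± 0.54 in N (adjusted p = 0.00763). The call in K was lost without any single one of its 6 libraries (adjusted p 0.0776 to 0.204), and that in N without wild-type N replicate 2 (0.0628). Its partner SULTR1;2, which carries most uptake under full supply, had 31.6 ± 5.02 CPM in the mutant and 32.4 ± 6.93 CPM in wild type in K (SD, n = 3), and 32.2 ± 6.06 and 37.0 ± 8.17 CPM in N. Its log2 fold changes of -0.04 ± 0.23 and -0.20 ± 0.23 were not called. The 4 root markers summed to 109 to 231 CPM in the mutant in K, against 78.7 to 152 CPM in wild type, and to 139 to 165 CPM in N, against 105 to 136 CPM. Of the 4, none was called in K and COBL9 was called higher in N (0.93 ± 0.30, adjusted p = 0.0466). The part of root markers in the transporter's difference was not tested.

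APR1, an APS reductase of the plastid, had 216, 254 and 202 CPM in the mutant in N, against 86.5, 120 and 109 CPM in wild type. These groups did not overlap, and the log2 fold change was 1.09 ± 0.21 (adjusted p = 0.00107). Adjusted p stayed under 0.05 in every alternative run, up to 0.0106. In K it had 232, 203 and 169 CPM, against 154, 124 and 115 CPM in wild type, with no overlap and a log2 fold change of 0.62 ± 0.21 that was not called (adjusted p = 0.155). The call in N and its absence in K do not show that the genotype difference depends on nitrate. The test of that dependence gave a log2 difference of 0.47 ± 0.30 (adjusted p = 0.61).

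APR3, a second APS reductase, had 234, 188 and 201 CPM in the mutant in K, against 124, 115 and 123 CPM in wild type, and the log2 fold change was 0.78 ± 0.18 (adjusted p = 0.0166). In N it had 214, 221 and 171 CPM, against 115, 158 and 113 CPM, with a log2 fold change of 0.65 ± 0.18 (adjusted p = 0.0211). Neither pair of groups overlapped. The call in K was lost without wild-type K replicate 2 (adjusted p = 0.0535) or 3 (0.0679) or septuple K replicate 1 (0.0953), and that in N without wild-type N replicate 1 (0.0755) or 3 (0.104) or septuple N replicate 1 (0.0808) or 2 (0.112). APR2, the third reductase, had 34.0, 50.3 and 31.3 CPM in the mutant in N, against 30.6, 26.0 and 19.7 CPM in wild type, a log2 fold change of 0.60 ± 0.28 (adjusted p = 0.187). The coding sequences of APR1 and APR3 are 81.8% identical and share no stretch of 50 bases, and those of APR2 are 75.7 and 74.8% identical to them.

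SDI1 is shown with the other sulfur-shortage genes. Its promoter at chr5:19807854-19808103 (minus strand), in capitals where GAGAC occurs on the other strand, was the only one of the 10 with that core, which began 23 bases before the gene start.
SDI1: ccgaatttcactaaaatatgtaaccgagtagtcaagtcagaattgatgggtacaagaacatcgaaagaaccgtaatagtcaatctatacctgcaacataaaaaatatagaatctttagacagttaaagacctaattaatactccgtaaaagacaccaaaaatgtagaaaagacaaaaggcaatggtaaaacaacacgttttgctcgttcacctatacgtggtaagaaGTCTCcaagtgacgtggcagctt
SDI1 had 7.51, 6.66 and 11 CPM in the mutant in K, against 4.03, 0.191 and 1.18 CPM in wild type, and 15.6, 11.2 and 11.3 CPM in N, against 1.82, 3.99 and 2.63 CPM. All 6 mutant libraries were above all 6 wild-type libraries. The log2 fold changes of 2.19 ± 0.77 (adjusted p = 0.175) and 2.17 ± 0.77 (adjusted p = 0.0727) nevertheless did not pass the test. The wild-type K libraries held 288, 6 and 54 counts. In K it was called without wild-type K replicate 1 (log2 fold change 3.57, adjusted p = 0.0257), and with no filter on low counts in both media (adjusted p 0.00214 in K and 0.000929 in N). DESeq2 called it in neither medium (adjusted p = 0.207 in K and 0.11 in N).

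LSU1 and LSU2, the pair of low-sulfur proteins, had coding sequences of 285 bases each that differed at 81 of them, here in capitals, and were 71.6% identical. They are shown because reads of near-identical copies cannot be told apart, which is not so for copies that differ this much. Each has a closer copy: LSU1 and LSU3 are 83.8% identical and LSU2 and LSU4 88.9%, and neither of these pairs shares a stretch of 50 bases. They are read 5′ to 3′ on the minus strand in TAIR10.1 at chr3:18375435-18375719 and chr5:8443472-8443756.
LSU1: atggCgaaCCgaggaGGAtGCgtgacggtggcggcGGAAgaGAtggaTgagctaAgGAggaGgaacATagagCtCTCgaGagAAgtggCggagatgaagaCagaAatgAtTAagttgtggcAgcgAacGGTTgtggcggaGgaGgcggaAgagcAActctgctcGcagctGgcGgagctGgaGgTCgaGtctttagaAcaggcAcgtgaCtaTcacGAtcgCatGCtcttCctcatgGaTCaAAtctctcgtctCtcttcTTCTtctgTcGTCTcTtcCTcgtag
LSU2: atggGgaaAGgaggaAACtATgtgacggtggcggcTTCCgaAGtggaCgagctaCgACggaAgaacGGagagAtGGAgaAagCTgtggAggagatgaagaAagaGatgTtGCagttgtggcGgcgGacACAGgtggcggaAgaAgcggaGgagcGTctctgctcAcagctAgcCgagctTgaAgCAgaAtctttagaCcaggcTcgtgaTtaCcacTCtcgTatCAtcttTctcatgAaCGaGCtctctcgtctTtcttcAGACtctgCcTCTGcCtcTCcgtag
LSU1 had 23.5, 19.8 and 21.8 CPM in the septuple mutant in N, against 7.97, 14.4 and 10.2 CPM in wild type. The groups did not overlap, and the log2 fold change of 1.00 ± 0.37 was not called (adjusted p = 0.0858). In K, LSU1 had 18.7, 12.3 and 11.2 CPM, against 17, 6.01 and 4.60 CPM, and LSU2 had 27.2, 19.3 and 18.7 CPM, against 19.0, 7.16 and 9.77 CPM. Both overlapped with wild-type K replicate 1, which was the highest of the 3 wild-type K libraries for both genes and for SDI1. Without that library LSU1 (log2 fold change 1.41, adjusted p = 0.0299) and LSU2 (1.36, adjusted p = 0.0405) were called, so that 4 of the 10 genes were, as the highest of the counts that leave out 1 library. Mesophyll markers moved with genotype in N, where 5 of 6 were called lower and their sum was 20900 to 25400 CPM in the mutant, against 46900 to 69200 CPM in wild type. Their part in these results was not tested. In K the sums were 25900 to 37400 CPM in the mutant and 28000 to 41100 CPM in wild type, and none of the 6 was called. Other markers moved with genotype as well. In K the 4 vasculature markers summed to 213 to 307 CPM in the mutant, against 111 to 181 CPM in wild type, with SUC2 called higher (0.96 ± 0.24, adjusted p = 0.0299). The 4 epidermis markers summed to 667 to 758 CPM, against 431 to 607 CPM, with none called. In N, APL of the vasculature was called lower (-1.47 ± 0.30, adjusted p = 0.00147), and vasculature and epidermis sums overlapped between the genotypes. The part of these markers was not tested either.

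None of the 10 genes was called between chl1-5 and wild type, in K, where 5.48% of all genes were called, or in N, where 0.0612% were. At an unadjusted p under 0.05, APR2 passed in K and SULTR1;1, APR2 and LSU1 passed in N. Shares of all genes at that looser threshold were not counted, and the shares above cannot stand in for them. SULTR1;1 had 3.58, 8.28 and 6.67 CPM in chl1-5 in N, against 1.74, 0.532 and 2.05 CPM in wild type, with no overlap and a log2 fold change of 2.1 ± 0.54 (adjusted p = 0.13). DESeq2 called it (adjusted p = 0.01). In K it had 4.85, 2.97 and 1.31 CPM, against 1.86, 1.34 and 1.40 CPM. APR2 had 17.8, 13.9 and 10.9 CPM in chl1-5 in N, against 30.6, 26.0 and 19.7 CPM, with a log2 fold change of -0.84 ± 0.28 (adjusted p = 0.242). LSU1 had 5.43, 4.57 and 6.19 CPM in N, against 7.97, 14.4 and 10.2 CPM, with a log2 fold change of -1.01 ± 0.38 (adjusted p = 0.304). APR1, APR3 and SDI1, which stood higher in the septuple mutant, had log2 fold changes of 0.05, -0.23 and -0.74 here in N. The labels give chl1-5 a growth text of its own, with the same medium, so that its genotype and its culture cannot be told apart.

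**Figure D2:**
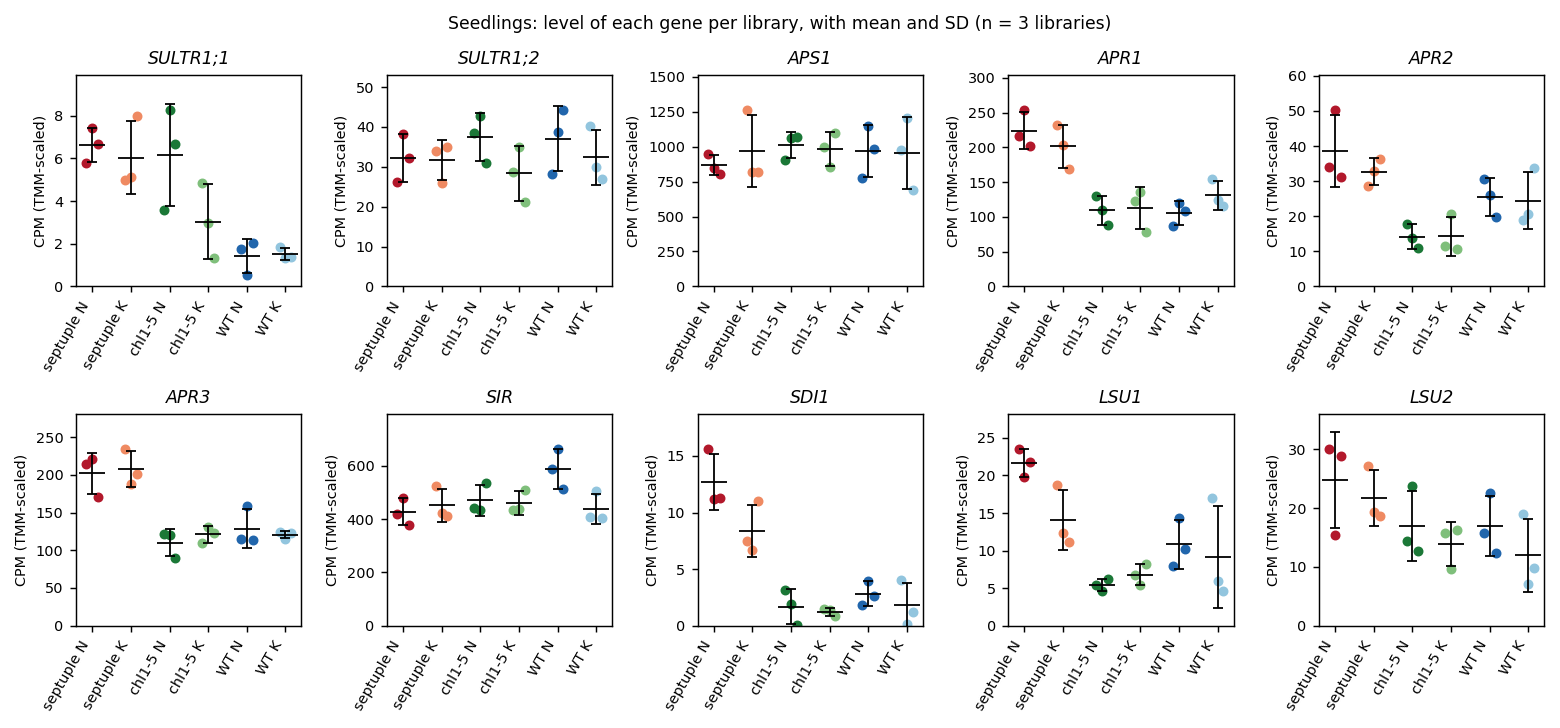
CPM of each of the 10 genes in seedlings (linear axis from 0), 1 point per library with the mean (line) and SD (bar, not drawn below 0) of 3 libraries, for the septuple mutant, chl1-5 and wild type in N and K. The septuple libraries lie above all wild-type libraries for SULTR1;1, APR1, APR3 and SDI1, while APS1 and SULTR1;2 overlap between all groups.

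In protoplasts, APS1 was the gene of the 10 that changed most often. It was lower with NLP2, NLP5, NLP8, NLP9 and NLP7, and no NLP raised it. LSU2 was higher with NLP1, NLP2 and NLP5 and lower with NLP7, and SDI1 was higher with NLP5. SULTR1;2, the 3 APS reductases, SIR and LSU1 were called with none of the 9 in the fit with all libraries. The APS1 promoter at chr3:8112364-8112613 (plus strand), shown as that of the gene with most calls, held none of the 3 motifs searched, which were GAGAC, ATGNANCT and the nitrate-responsive element.
APS1: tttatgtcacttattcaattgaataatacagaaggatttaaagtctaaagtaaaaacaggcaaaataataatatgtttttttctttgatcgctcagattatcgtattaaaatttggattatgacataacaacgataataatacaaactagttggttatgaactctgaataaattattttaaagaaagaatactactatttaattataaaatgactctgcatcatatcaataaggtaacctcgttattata
ATGNANCT occurred in 1 of the 10 windows, that of LSU1, and in 12.5% of all promoters.

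APS1 had 308 and 264 CPM with NLP9, against 718 CPM in the control, a log2 fold change of -1.33 ± 0.15 (adjusted p = 6.9e-05). It was the gene of the 10 called with NLP9, where 19.3% of the 19311 genes tested were called in either direction (11.5% lower). With NLP2 it had 324 and 386 CPM (-1.02 ± 0.15, adjusted p = 0.000966), beside 14.3% of all genes called (6.61% higher and 7.71% lower). NLP8 gave 335 and 379 CPM, with 379 CPM in the library that held NLP5 (-1.01 ± 0.15, adjusted p = 0.000902), beside 10.9% (8.05% lower). NLP5 gave 406 and 336 CPM, the lower one in the library that held NLP8 (-0.95 ± 0.15, adjusted p = 0.00132), beside 10.6% (2.87% higher and 7.73% lower). All 8 libraries were below the shared control, and these 4 calls held in every alternative run. Without the 4 libraries that go against their labels, the log2 fold changes were -1.34 with NLP9, -1.04 with NLP2, -1.10 with NLP8 and -0.84 with NLP5, of which NLP8 and NLP5 then had 1 library each. NLP1 and NLP3, which share that control, had 536 and 542 CPM and 514 and 571 CPM, log2 fold changes of -0.41 ± 0.16 (adjusted p = 0.186) and -0.40 ± 0.16 (adjusted p = 0.184) that were called only without those 4 libraries or, for NLP1, with the control pair kept apart.

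With NLP7, 2 of the 9 genes tested were lower, beside 9.63% of all genes called in either direction (3.17% lower). APS1 had 874 and 926 CPM, against 1175 and 1303 CPM in its control, a log2 fold change of -0.46 ± 0.13 (adjusted p = 0.0355). LSU2 had 51.6 and 56.8 CPM, against 93.8 and 77.4 CPM, a log2 fold change of -0.66 ± 0.19 (adjusted p = 0.0375). All 9 log2 fold changes were below 0, with a median of -0.44 beside -0.02 over all genes tested, and SDI1 (-0.47, adjusted p = 0.233), LSU1 (-0.50, adjusted p = 0.274), APR1 (-0.44, adjusted p = 0.124) and APR3 (-0.37, adjusted p = 0.188) were among those not called. Both calls were lost without any single one of the 4 libraries (APS1 adjusted p 0.0661 to 0.206, LSU2 0.0569 to 0.225). Without the 4 libraries that go against their labels, none of which is a library of this comparison, 6 of the 9 were called lower, namely APS1, APR1, APR3, SDI1, LSU1 and LSU2, and 4554 of all genes in place of 1859. The mesophyll markers summed to 1030 to 1070 CPM with NLP7, against 752 to 801 CPM, with 3 of 6 called higher, and their part in the result was not tested.

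LSU2 had 42.7 and 38.9 CPM with NLP1, against 19.5 CPM in the control (1.06 ± 0.24, adjusted p = 0.042). It was the only one of the 9 called with NLP1, beside 1.58% of all genes (0.974% higher). NLP2 gave 32.7 and 41.8 CPM (0.93 ± 0.25, adjusted p = 0.0204) and NLP5 gave 34.6 and 34.5 CPM (0.82 ± 0.24, adjusted p = 0.0427). The call with NLP1 was lost without either NLP1 library (adjusted p = 0.184 and 0.118) or without control replicate 2 (0.057), that with NLP2 without NLP2 replicate 2 (0.109), and that with NLP5 without either NLP5 library (0.0792 and 0.113) or without control replicate 2 (0.0597). Without the 4 libraries that go against their labels, which leaves 1 NLP5 library that is assumed to vary like the other groups, the log2 fold change with NLP5 was 0.81 (adjusted p = 0.0022). With NLP3, LSU2 had 37.4 and 34.6 CPM (0.88 ± 0.24, adjusted p = 0.066), with NLP8 26.6 and 33.5 CPM (0.63 ± 0.24, adjusted p = 0.111) and with NLP9 30 and 24 CPM (0.47 ± 0.24, adjusted p = 0.192). Every one of these 12 libraries was above the single control sample. The 6 comparisons share it, so that its own level enters all of them.

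SDI1 had 10.6 and 9.61 CPM with NLP5, against 4.49 CPM in the control (1.17 ± 0.35, adjusted p = 0.0458), the second value in the library that held NLP8. Without the 4 libraries that go against their labels, which leaves the first NLP5 library on the same assumption, the log2 fold change was 1.22. Leaving out either NLP5 library, or either library of the control, ended the call (adjusted p 0.0571 to 0.103). The other 5 NLPs with that control gave log2 fold changes of 0.65 to 0.99, none of them called.

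With NLP4 and with NLP6 none of the 9 was called, beside 3.46 and 4.05% of all genes, and with NLP3 none was, beside 2.79%. At an unadjusted p under 0.05, APR1, SIR and LSU1 passed with NLP4, none with NLP6, and APS1, APR1, SDI1 and LSU2 with NLP3. How many of all genes passed at that looser threshold was not counted, so the shares above are no background for it. DESeq2 called LSU2 with NLP3 (adjusted p = 0.0135) and none with NLP4 or NLP6. APR1 had 439 and 424 CPM in the libraries labelled NLP4, the first of which held NLP1, against 315 and 306 CPM in the control (0.47 ± 0.17, adjusted p = 0.124). SIR had 429 and 547 CPM, against 368 and 358 CPM (0.43 ± 0.19, adjusted p = 0.194). Without the 4 libraries that go against their labels, the log2 fold changes were 0.44 for APR1 and 0.58 for SIR. That fit leaves only the second NLP4 library, assumed to vary like the other groups, and also drops libraries outside this comparison. In the libraries labelled NLP6, APR1 had 437 CPM where NLP4 was held and 281 CPM where NLP6 was, and LSU1 had 233 and 134 CPM, against 173 and 164 CPM in the control. The library that held NLP4 was thus closer to the NLP4 library of 424 CPM of APR1 and 232 CPM of LSU1 than to its labelled pair. For APR1 it was closer still to the library labelled NLP4 that held NLP1, at 439 CPM. These are single libraries and 2 genes, and the likeness was not tested.

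**Figure D3:**
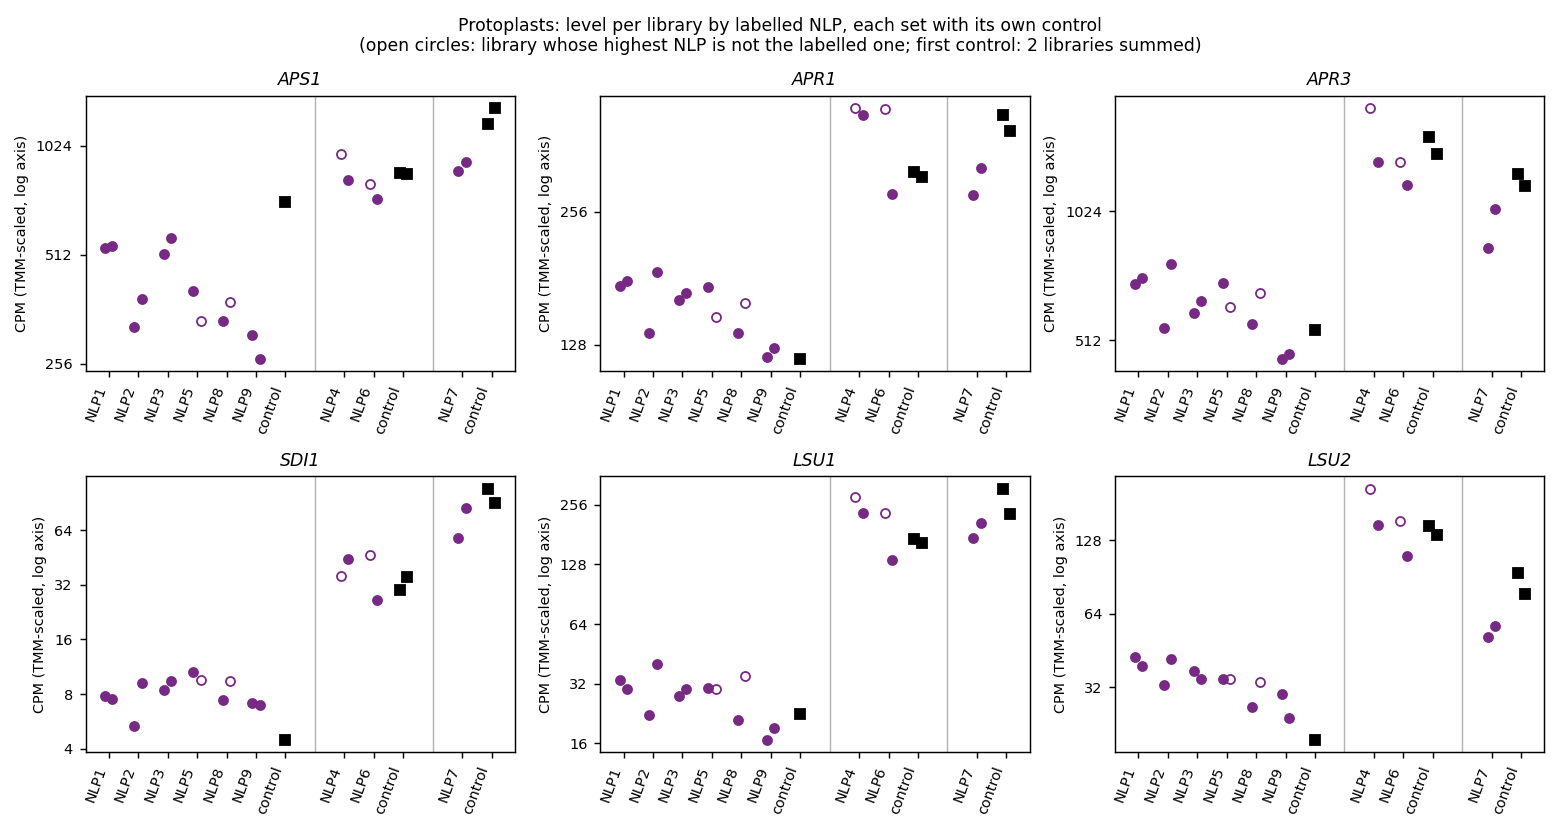
CPM (log axis, base 2) of 6 of the genes in each protoplast library, in 3 sets with the NLP libraries (circles) left of their own control (squares). Open circles are libraries whose highest NLP is not the labelled one, and the first control is the sum of 2 libraries; APS1 lies below the control for all 12 libraries of the first set and LSU2 above it.

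Genes around the 10 were described from 4 lists: 10 further sulfate transporters, 7 genes of sulfate activation, 10 of cysteine and glutathione synthesis and 7 further sulfur-starvation genes. Of these 34, 1 was called for nitrate in wild type, and it was higher. SERAT2;1, a plastid serine acetyltransferase that makes the O-acetylserine to which sulfide is joined, averaged 138 CPM in N and 45.2 CPM in K (1.61 ± 0.20, adjusted p = 2.04e-05). It rose in chl1-5 as well, to 111 CPM in N, against 53.0 CPM in K (1.07 ± 0.20, adjusted p = 0.0184), a call lost without chl1-5 N replicate 2 or 3 or chl1-5 K replicate 2. In the septuple mutant it had 36.0 CPM in N and 33.7 CPM in K (log2 fold change 0.09). The difference between the log2 responses, mutant minus wild type, was -1.52 ± 0.28 (adjusted p = 0.00993). In protoplasts the log2 fold changes of SERAT2;1 were below 0 with all 9 NLPs (-1.01 to -0.23), and none was called.

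Between the septuple mutant and wild type in N, 3 of the 10 further transporters were called higher and 1 lower, with a list median of 0.72 beside 0.04 over all genes, and 10.8% of all genes were called (4.05% higher). In K 2 were called higher and none lower, beside 2.25% of all genes (1.41% higher). The third transporter called higher in N, SULTR4;1 (adjusted p = 0.0469), was lost without any single library of the comparison (adjusted p 0.0585 to 0.183). SULTR3;3, of the plastid-linked group of transporters, had 120 CPM in the mutant and 42.2 CPM in wild type in K (1.5 ± 0.18, adjusted p = 1.49e-05), and 90.6 and 50.0 CPM in N (0.86 ± 0.18, adjusted p = 0.00226). SULTR3;2 was called higher in both media (1.12 ± 0.24 in K and 0.79 ± 0.24 in N), and SULTR3;1 lower in N (-1.20 ± 0.32, adjusted p = 0.0136). Of the 7 further starvation genes 1 was called higher in K and 2 in N, beside the same shares of all genes. The one in K was SHM7 (0.98, adjusted p = 0.0439), which was lost without wild-type K replicate 2 or 3 or any single septuple library (adjusted p up to 0.251). SHM7, a serine hydroxymethyltransferase needed in the response to sulfur shortage, had 64.8 CPM in the mutant and 23.9 CPM in wild type in N (1.44 ± 0.27, adjusted p = 0.000577), and GGCT2;1, which degrades glutathione, had 8.48 and 1.63 CPM (2.38 ± 0.68, adjusted p = 0.0224). SERAT2;1 was lower in the mutant in N (-1.94 ± 0.20, adjusted p = 3.17e-07). None of the 7 activation genes was called in either medium. In chl1-5 in K, SERAT3;1 (-2.06 ± 0.62, adjusted p = 0.0497), GSH2 (-0.94 ± 0.20, adjusted p = 0.0129) and SHM7 (-1.01 ± 0.27, adjusted p = 0.0306) were lower than in wild type. In the same comparison 4 of 6 mesophyll markers and 2 of 4 epidermis markers were called higher, with mesophyll sums of 55100 to 71400 CPM in chl1-5, against 28000 to 41100 CPM in wild type, and epidermis sums of 774 to 844 CPM, against 431 to 607 CPM. Their part was not tested. All 3 of these calls were lost without wild-type K replicate 1, among other libraries, and leaving out 1 library at a time brought the adjusted p up to 0.212 for SERAT3;1, 0.0604 for GSH2 and 0.144 for SHM7. The calls of SULTR3;1, SULTR3;2 and GGCT2;1 in N were lost without septuple N replicate 3, among others, with an adjusted p of up to 0.0759, 0.144 and 0.0976, so that SULTR3;3 was the one of the 3 higher transporters still called without that library. The call of SULTR3;2 in K was lost without wild-type K replicate 3 (adjusted p = 0.0745).

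In protoplasts, 3 of the 10 genes of cysteine and glutathione synthesis were called lower with each of NLP1, NLP2, NLP5, NLP8 and NLP9. With NLP3 it was 2, with NLP4 and NLP7 1 each and with NLP6 none, and none was called higher. The genes called were GSH1, GSH2 and OASC, and the other 7 were called with no NLP. Of all genes, 1.58, 14.3, 2.79, 3.46, 10.6, 4.05, 9.63, 10.9 and 19.3% were called in either direction with NLP1 to NLP9 in order. Shares called lower were 7.71% with NLP2, 7.73% with NLP5, 3.17% with NLP7, 8.05% with NLP8 and 11.5% with NLP9. Of the 7 activation genes, 3 were called lower with NLP2 and NLP9, 2 with NLP5 and NLP8 and 1 with NLP4 and NLP7, beside the same shares. With each NLP but NLP3 and NLP4, 1 was called higher. APK3 and APK2 are APS kinases, which take the same APS to sulfated products. APK3 was called higher with 7 of the 9 NLPs. It was higher by 1.55 ± 0.15 on the log2 scale with NLP7 (adjusted p = 1.28e-05), and had 20.7 CPM with NLP2, against 6.92 CPM (1.58 ± 0.20, adjusted p = 0.000324). The APK3 calls with NLP1 and NLP5 were lost without some single library, and that with NLP6 without any single library of its comparison. APK2 was lower with 5, having 27.7 CPM with NLP2, against 110 CPM (-1.99 ± 0.16, adjusted p = 9.35e-06). APS2, a second ATP sulfurylase, was lower with 5 as well, with log2 fold changes of -0.84 to -1.11. Each of these 5 APS2 calls, and that of APK2 with NLP7, was lost without some single library. GSH2, the glutathione synthetase, was lower with 8 and GSH1, which makes its substrate, with 6. The GSH2 call with NLP7 was lost without any single library of that comparison, and those with NLP1, NLP3 and NLP4 without some. The GSH1 calls with NLP1 and NLP3 were lost without either NLP library. Calls of both genes with NLP2, NLP5, NLP8 and NLP9 were not lost in this way. GSH1 had 103 CPM with NLP9, against 331 CPM (-1.68 ± 0.23, adjusted p = 0.000244), and GSH2 had 66.9 CPM, against 203 CPM (-1.60 ± 0.20, adjusted p = 0.000112). OASC, an O-acetylserine lyase of the mitochondrion, was lower with 5 and had 20.9 CPM with NLP9, against 35.5 CPM (-0.77 ± 0.12, adjusted p = 0.000711). Its calls with NLP1 and NLP2 were lost without either NLP library. Of the further transporters, 8 were tested, and 2 were called higher with NLP2, 3 with NLP7 and 2 with NLP9, beside the same shares. None was called lower, and none was called with the other NLPs. SULTR3;3 had 31.0 CPM with NLP7, against 8.10 CPM (1.94 ± 0.23, adjusted p = 5.4e-05). SULTR3;5 had 2.52 CPM with NLP2 and none in the control, a call lost without either NLP2 library or without control replicate 2. The 7 further starvation genes held 1 call, BGLU28 with NLP7 (-0.71 ± 0.21, adjusted p = 0.044), which was lost without any single library of that comparison (adjusted p 0.0622 to 0.326). These counts are of comparisons, 6 of which share 1 control sample. They use the libraries as labelled, so that 1 of the 2 libraries behind each of NLP4, NLP5, NLP6 and NLP8 held another NLP.

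**Figure D4:**
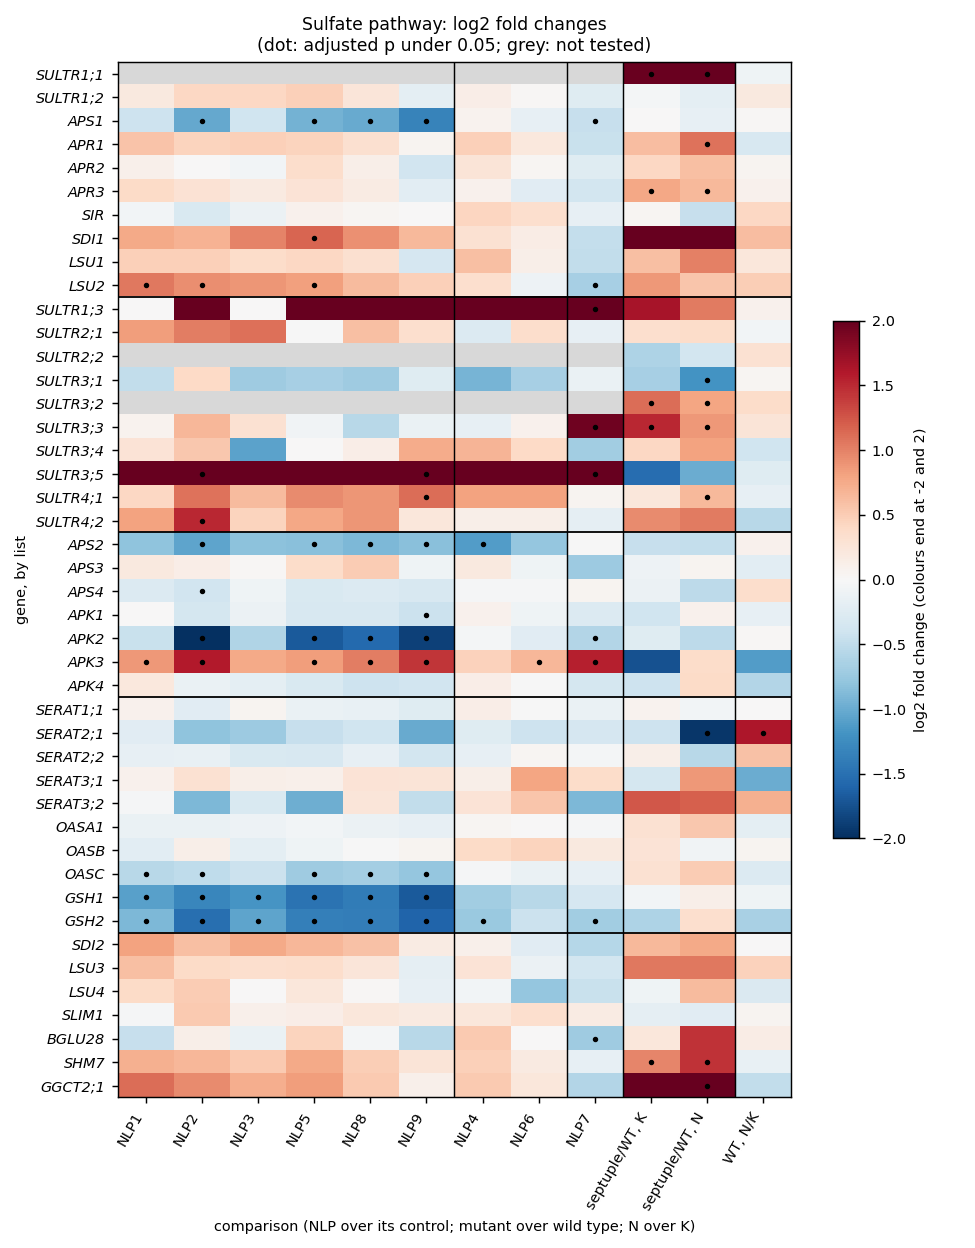
Log2 fold changes of the 10 genes (top) and of the 4 pathway lists (below, separated by lines) for each NLP over its control, for the septuple mutant over wild type in K and N, and for N over K in wild type; dots mark an adjusted p under 0.05 and grey cells were not tested. Colours end at -2 and 2, and SULTR1;3 and SULTR3;5 had 0 counts in some controls, so that their folds depend on the prior count. APS1, GSH1, GSH2 and APK2 are blue and APK3 red over most NLPs.

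Likeness to SDI1 was measured as Pearson's r of log2 CPM and is a description only. Over the 18 seedling libraries the 5 most similar genes were AT1G23890 (r = 0.881), AT1G24350 (0.846), KCO1 (0.84), AT1G26930 (0.836) and SHM6 (0.836), and none of the 10 was among them. Over 23 protoplast samples they were SULTR1;2 (0.983), AT5G40670 (0.975), BGLU28 (0.972), SHM7 (0.97) and APR2 (0.969). The protoplast libraries share the difference in level between the control sets, which spans 4.49 to 108 CPM for SDI1 itself.

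The authors' deposited tables for N against K in the 3 genotypes called none of the 10 genes at an adjusted p under 0.05, as here. For the NLPs the authors' deposited tables called 5 with NLP1, 6 with NLP2, 5 with NLP3, 1 with NLP4, 7 with NLP5, none with NLP6, 5 with NLP7, 5 with NLP8 and 3 with NLP9. Each of the calls made here was among them with the same sign. Among those the authors' deposited tables alone called, APR1 was the most frequent, with NLP1, NLP2, NLP3, NLP5, NLP7 and NLP8. Fold sizes differed for NLPs with a library that goes against its label. In the authors' deposited tables APR2 had a log2 fold change of 0.57 with NLP5 and -0.19 with NLP8, against 0.36 and 0.12 in DESeq2 here. SIR had 0.56 with NLP4, against 0.43. Without the 4 libraries that go against their labels, edgeR gave APR2 0.64 with NLP5 and -0.39 with NLP8, and SIR 0.58 with NLP4. For APR2 with NLP8 this was the sign of the authors' deposited tables, unlike the value from the libraries as labelled. Whether those tables rest on the libraries as labelled was not tested, so the counts of calls may not compare the same samples.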

How the data were processed

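Whole-number read counts per gene were deposited by the authors, 1 file per library, with no normalisation. The authors' 12 deposited comparison tables hold log2 fold changes and adjusted p-values. The submitters' processing notes name TopHat2 2.1.1, HTSeq 0.6.1, featureCounts, FastQC 0.11.5 and TAIR10, without their roles. The closing totals of each file stayed out of library sizes: reads with no feature came to 0.838 to 21.0% of gene counts in protoplasts and 0.815 to 16.7% in seedlings, and alignments that were not unique to 7.14 to 315% and 14.5 to 170%. The strand setting of the counting was not given in the sources used here, so overlapping and antisense genes are uncertain.

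Counts were tested with edgeR 4.0.16 (quasi-likelihood F test, TMM, filterByExpr by group) in R 4.3.3, adjusted by Benjamini-Hochberg over all genes tested, and called at 0.05. One fit held the 18 seedling libraries (21229 genes, 12 residual degrees of freedom, common biological coefficient of variation 0.43). Another held 23 protoplast samples (19311 genes, 11, 0.16), in which the 2 libraries of the control for NLP1,2,3,5,8,9 were summed, since their chi-square was 1.01 per gene over 15872 genes (p = 0.119), against at least 3.73 in other pairs, NLP genes left out. CPM carry the TMM scaling, but NLP and NRT1.1 levels in the check of labels use plain library totals. The script was tested on simulated data. Alternatives were RLE size factors, no filter, DESeq2 1.42.0, a replicate block, smaller fits, unmerged controls, left-out libraries and leaving out the 4 libraries that go against their labels. No source says that replicates came from separate cultures, and for wild type and the septuple mutant the labels describe 10 seedlings in a well, so p-values measure the spread between these samples. Named genes were the 10 members, list genes past the threshold (at most the 4 highest and 4 lowest of a comparison) and the 5 genes most like SDI1. Members and lists were chosen with earlier results of these data known. Sequences and positions come from the RefSeq TAIR10.1 genome and annotation.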

Additional observations from a re-analysis of the deposited data

How the results depend on the processing

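Of 1920 values of single genes under alternatives, 36 lost and 61 gained a call and 1823 kept their side of the threshold. Among these, 124 that were not called changed sign, and no called value did. Counts of the 10 genes called moved as follows. With no filter on low counts they were 5 for septuple against wild type in N, 1 and 1 for chl1-5 against wild type in K and N, 3 with NLP1, 2 with NLP3, 3 with NLP4, 5 with NLP7, 3 with NLP8 and 2 with NLP9. With only the groups compared they were 0 in K and 5 in N for septuple against wild type. DESeq2 gave 1 for chl1-5 against wild type in N and 1 with NLP3. With a replicate block, whose numbers do not pair the samples, they were 1 for septuple against wild type in K, 2 with NLP3 and 3 with NLP8, and other counts stayed within 1.5 times. With the control pair kept apart they were 3 with NLP1, 2 with NLP3 and 3 with NLP8. Without the 4 libraries that go against their labels, which leaves NLP4, NLP5, NLP6 and NLP8 with 1 library each that is assumed to vary like the other groups, they were 3, 5, 5, 2, 6, 6 and 3 with NLP1, NLP2, NLP3, NLP4, NLP5, NLP7 and NLP9. Leaving out 1 library at a time gave 0 to 4 for septuple against wild type in K, 2 to 3 in N, 0 to 1 for chl1-5 against wild type in K, 0 to 1 with NLP1, 1 to 2 with NLP2 and with NLP5, and 0 to 0 with NLP7. The cause of these shifts was not tested. With 1 count over the 24 protoplast libraries, no difference in SULTR1;1 was detectable there.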

Other observations

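Over the 18 seedling libraries Pearson's r of log2 CPM between the 3 APS reductases was 0.70 to 0.87. Between APS reductases and SDI1, LSU1 or LSU2 it was 0.21 (APR2 and LSU2) to 0.82 (APR3 and SDI1). Between APS1 and APR2 it was -0.52. Over 23 protoplast samples r was 0.81 to 0.95 between the reductases, and between them and SDI1, LSU1 or LSU2 it was 0.71 (APR2 and LSU2) to 0.98 (APR1 and LSU1). These values are descriptions: the seedling libraries share their genotype groups and the protoplast libraries their control sets.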
